A study of Zea mays with 4 samples.

Results

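Pollinated silks (PS) were compared with germinated pollen (GP) over the 112 distinct mature miRNA sequences that had at least 10 reads in either library. They are 112 of the 181 distinct sequences in the deposited table, whose 270 entries often repeat a sequence under several names. Of the 112, 45 are known maize miRNAs from miRBase and 67 are miRNAs predicted by the authors from hairpins. Names that share 1 mature sequence were counted once and are written together, as in miR164a-d/g for miR164a, b, c, d and g. Predicted miRNAs are called by their mature sequence.

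Small RNAs of the maize inbred B73 were sequenced in 4 tissues, 1 library each. GP is pollen of which over 90% had germinated after 30 min in liquid medium. PS is silk harvested 30 min after an excess of viable pollen had been applied, when loose grains had been shaken off but attached grains and tubes remained, so the PS sample holds both tissues. The other libraries are mature pollen (MP) and unpollinated mature silks (MS), given here only where they help to read PS and GP.

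With 1 library per tissue, every test below compares reads of the PS and GP libraries and not the conditions, and no value has a replicate check. Intervals are exact 95% intervals, which cover counting error only, since PCR copies of a molecule were not marked. The libraries had 10575042 clean reads in GP and 5205129 in PS. A level in TPM is a count scaled to the clean reads of its library, by which 1 read was 0.0946 TPM in GP and 0.192 TPM in PS. A count of 0 allows up to 3 reads, or 0.284 TPM in GP and 0.576 TPM in PS, and this floor was used for the bound of a ratio against 0.

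Plant miRNAs are excised from hairpin precursors by DICER-LIKE1 and guide ARGONAUTE proteins to nearly complementary sites in mRNAs, which are then cut or held back from translation. Most conserved families regulate transcription factors, and others act in nutrient homeostasis or on the silencing machinery itself. Pollen carries the male gametes through a tube, and the silk is the stigma and style of the maize ear, so both tissues meet within minutes of pollination. The family roles given below are known mainly from Arabidopsis and rice.

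The sequences at the ends of the known range are shown first, since these members are described most closely below. Letters are those of the table (T for U), 5′ to 3′, and bases 2 to 8, the seed, are in capitals. The first 5 had the largest ratios of PS to GP, and the last 2 were the known sequences lower in PS.
miR164a-d/g: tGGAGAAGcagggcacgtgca
miR827: tTAGATGAccatcagcaaaca
miR171b: tTGAGCCGtgccaatatcac
miR171f: tTGAGCCGtgccaatatcaca
miR167e-j: tGAAGCTGccagcatgatctg
miR399b: tGCCAAAGgagagctgtcctg
miR159h/i: tTTGGAGTgaagggagctctg

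Known miRNAs took a far larger part of the silk library. Reads of distinct known sequences were 0.417% of clean reads in GP (0.413% to 0.421%) and 3.60% in PS (3.58% to 3.62%), a ratio of 8.63 (8.54 to 8.72). On a log2 scale this is 3.11. Every ratio below is lower by that amount when a level is expressed as a share of known miRNA reads in place of clean reads. The known total adds up overlapping sequences, such as miR166a and miR166b-i, whose counts can include the same reads. How far such reads change the total was not tested, and the interval does not cover it. The rest of the clean reads are other small RNAs, so a low level per clean read cannot be told apart from a large amount of other small RNA. In a whole tissue, fewer cells that hold a miRNA and less of it per cell cannot be told apart either. Predicted miRNAs differed less in total, with 3594 reads in GP and 2698 in PS, a ratio of 1.53 (1.45 to 1.60) per clean read.

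A sequence was called where a 2-sided Fisher's exact test gave a Benjamini-Hochberg adjusted p under 0.01 over the 174 distinct sequences with a read in PS or GP, and the log2 ratio exceeded 1.5 in size. Per clean read, 37 of the 45 known sequences were higher in PS, 2 were lower and 6 were not called. Some of the 37 overlap and can hold the same reads. With only the most abundant of overlapping sequences kept, 26 were higher and 2 lower. Among all 69 known sequences tested, 59.4% were called higher and 2.9% lower. As shares of known reads, 23 known sequences were higher, 8 lower and 14 not called, against 33.3% called higher and 15.9% called lower of those tested. The median log2 ratio of the 45 was 4.72 per clean read and 1.61 as a share of known reads, with 13 sequences at 0 reads in GP entered at their bound. All 23 sequences called higher on the known-read scale were also called higher per clean read, and both sequences called lower per clean read were also called lower on the other scale. The largest adjusted p was 7.09e-06 among the known sequences called higher and 0.00828 among those called lower.

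The minimum of 10 reads shaped these counts. Of the known sequences, 25 reached it in PS only, and all 25 were called higher per clean read, while 4 reached it in GP only, of which 2 were called lower. The 16 that reached it in both libraries did not pass through 1 library alone. Of these 12 were higher, 0 lower and 4 not called per clean read. This subset is still chosen by the compared counts. The minimum of 10 reads is a higher level in PS than in GP, at 0.192 and 0.0946 TPM per read. As shares of known reads, 5 of these 16 were higher, 4 lower and 7 not called. With the highest counts just outside the minimum, miR171c had 9 reads in PS and 0 in GP, and miR169l had 8 and 0. Just inside it, miR393b had 7 reads in PS and 11 in GP.

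**Figure D1:**
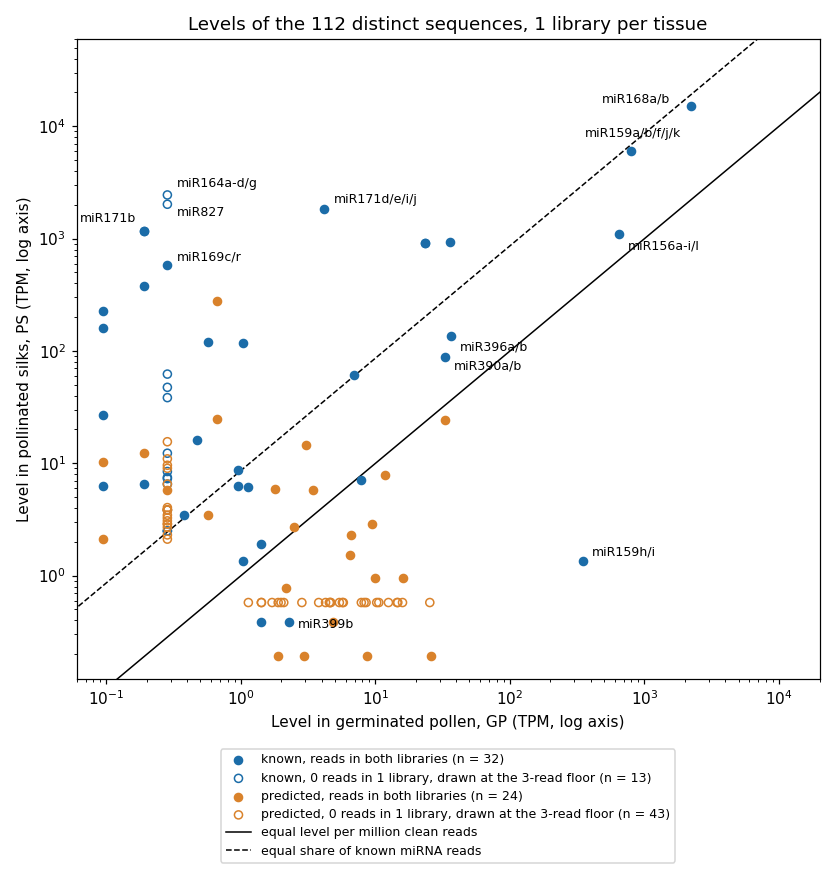
Level in germinated pollen (horizontal, TPM, log axis) against level in pollinated silks (vertical, TPM, log axis) for the 112 distinct sequences, 1 library per tissue. Filled points had reads in both libraries, open points had 0 reads in 1 of them and stand at the 3-read floor. The solid line is equality per clean read and the dashed line, 8.63 times higher, equality as a share of known reads. miR168a/b and miR159a/b/f/j/k lie close to the dashed line, and miR159h/i lies far below both lines.

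Both libraries were led by the same pair of sequences. miR168a/b, which targets ARGONAUTE1 and so acts back on the miRNA pathway, had 23324 reads in GP (2206 TPM) and 79555 in PS (15284 TPM). Its log2 ratio was 2.79 (2.77 to 2.81) per clean read, a called difference, but −0.32 as a share of known reads, where it was not called. It made up 52.9% of known reads in GP and 42.4% in PS. miR159a/b/f/j/k acts on GAMYB-type MYB genes and had 8330 reads in GP (788 TPM) and 31546 in PS (6061 TPM). Its log2 ratio was 2.94 (2.91 to 2.98) per clean read and −0.17 as a share of known reads. The direction for these leading sequences therefore depended on the scale. The 5 most abundant known sequences held 96.4% of known reads in GP and 76.8% in PS. It took 4 sequences to reach 90% of known reads in GP and 10 in PS. The 10 in PS include miR171b and miR171f, whose counts can include the same reads.

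Below this pair the libraries differed in order. In GP the next were miR156a-i/l with 6782 reads, miR159h/i with 3696 and miR396a/b with 382. In PS the next were miR164a-d/g with 12740 reads, miR827 with 10530 and miR171d/e/i/j with 9502, of which GP had 0, 0 and 44 reads.

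The phase-change miRNAs were mixed, with 2 of 4 measured sequences higher per clean read and 0 lower, and 1 higher and 2 lower as shares of known reads. Over all 45 known sequences, 37 were higher and 2 lower per clean read, and 23 and 8 as shares of known reads. Of the 2 phase-change sequences that were higher, 1 reached the minimum of 10 reads in PS only, which fixed its direction. miR156 restrains SPL transcription factor genes (called SBP in maize), miR529 targets an overlapping set of them, and miR172 acts on APETALA2-like genes. miR156a-i/l had 6782 reads in GP (641 TPM) and 5745 in PS (1104 TPM), with 5931 in MP and 8064 in MS. Its log2 ratio was 0.78 (0.73 to 0.83) per clean read, under the limit, but −2.33 as a share of known reads, where it was called lower. It made up 15.4% of known reads in GP and 3.07% in PS. miR156k, which differs from it by 1 base (T14C, counted from the 5′ end), had 10 reads in GP and 45 in PS, a log2 ratio of 3.19 (2.18 to 4.35). The ratio of miR156k exceeded that of miR156a-i/l by 5.31 times (2.64 to 11.8), a comparison that needs no scaling.

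miR529 had 15 reads in GP and 2 in PS, with 1 in MP and 2 in MS. Its log2 ratio of −1.88 (−5.06 to 0.22) was not called per clean read (adjusted p = 0.101, Fisher's exact test) and was called lower as a share of known reads. The deposited table lists 6 genes as targets of miR529, and all 6 are among the 25 listed for miR156a-i/l. They include tga1, ub2, ub3 and sbp23, genes of the SBP family by their names in the RefSeq annotation of Zm-B73-REFERENCE-NAM-5.0. miR172a-d went the other way, from 5 reads in GP to 84 in PS, a log2 ratio of 5.09 (3.81 to 6.75). However, miR172a-d reached the minimum of 10 reads in PS only, which fixed its direction per clean read, and miR529 in GP only.

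Among the auxin-related families, 4 of 6 measured sequences were higher in PS per clean read and 0 lower, beside 37 and 2 of all 45 known sequences. Of these 4, 2 reached the minimum of 10 reads in PS only, which fixed their direction. On the known-read scale 2 were higher and 2 lower, beside 23 and 8 of the 45. miR167 targets auxin response factor genes of the ARF6 and ARF8 type, and both of its sequences were called higher on either scale. miR167e-j had 1 read in GP and 1184 in PS (227 TPM), a ratio of 2405 with an interval of 431 to 95091. miR167a-d had 11 reads in GP and 607 in PS (117 TPM), a ratio of 112 (62.2 to 226). The pair differ by 1 base, A21G, and their ratios differed by 21.4 times (3.10 to 924).

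The other auxin-related sequences had smaller ratios, but not all were clearly apart from miR167. miR160a-e/g, a regulator of repressing ARF genes, had 2 reads in GP and 34 in PS. Its ratio of 34.5 (8.85 to 297) was called higher per clean read only. That interval holds the whole interval of miR167a-d, so a smaller difference was not shown for it. miR390a/b, which triggers phased siRNAs against ARF genes from TAS3 transcripts, had 347 reads in GP (32.8 TPM) and 459 in PS (88.2 TPM). Its log2 ratio was 1.43 (1.22 to 1.63) per clean read, just under the limit, but −1.68 as a share of known reads, where it was called lower. For miR393, a regulator of TIR1-type auxin receptor genes, miR393a/c had 12 reads in GP and 32 in PS, and miR393b had 11 and 7. The ratio of miR393a/c was 4.08 times (1.14 to 15.8) that of miR393b, from which it differs at the last base, T22C.

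The families that act on NAC, HD-ZIP III, GRAS, TCP and GRF transcription factor genes in leaves and meristems had 17 measured sequences, of which 16 were higher in PS per clean read, 0 were lower and 1 was not called. This stands beside 37 of all 45 known sequences. Of the 17, 10 reached the minimum in PS only, and several are overlapping forms within miR164, miR166 and miR171 whose counts can include the same reads. As shares of known reads, 11 were higher, 1 lower and 5 not called. Their median log2 ratio was 5.30 per clean read, beside 4.72 for the 45 known sequences, with 7 of the 17 at 0 reads in GP.

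miR164, a regulator of NAC genes such as CUC2, was not seen in GP at all. miR164a-d/g had 0 reads in GP and 12740 in PS (2448 TPM), with 4 in MP and 29333 in MS, so it was at least 8628-fold higher in PS. miR164f and miR164h had 0 reads in GP, and 247 and 64 in PS. These sequences differ from miR164a-d/g at the last bases only (A21T, and C20T with A21G), and their counts can include the same reads.

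The miR171 family, which targets HAIRY MERISTEM-type GRAS genes, differed widely between its members. miR171b had 2 reads in GP and 6126 in PS (1177 TPM), with 0 in MP and 42 in MS. miR171f, which is miR171b with 1 further base, had 2 reads in GP and 6037 in PS, with 0 in MP and 3 in MS. Their ratios were 6223 (1722 to 51397) and 6133 (1697 to 50650). Some of their reads may be the same, since the authors added length variants of up to 2 bp to each entry. Their counts in MS differed, and how many reads they share was not tested.

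miR171d/e/i/j had 44 reads in GP (4.16 TPM) and 9502 in PS (1826 TPM), with 12 in MP and 3766 in MS. Its ratio of 439 (327 to 604) was 14.2 times (3.70 to 121) smaller than that of miR171b. Its sequence holds the first 18 bases of miR171b, shifted by 3 bases, and those bases are in capitals here.
miR171d/e/i/j: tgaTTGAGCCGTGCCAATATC
miR171b: TTGAGCCGTGCCAATATCac
The seeds of the 2 forms therefore differ, although 12 of their predicted target genes are shared, 92.3% of the 13 listed for miR171d/e/i/j and 80.0% of the 15 listed for miR171b. The remaining miR171 members, miR171a, miR171l/m and miR171n, had 0 reads in GP and from 13 to 34 in PS.

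miR166, which acts on HD-ZIP III genes, had 4 measured sequences, all higher per clean read. miR166a had 247 reads in GP and 4770 in PS, and miR166b-i, 1 base shorter, had 246 and 4763, and the reads of both may largely be the same. Their log2 ratio was 5.29 (5.11 to 5.48) for miR166a. miR166l/m had 73 reads in GP and 315 in PS, a log2 ratio of 3.13 per clean read, called higher, and of 0.02 as a share of known reads, not called. miR166a rose 4.47 times (3.32 to 5.99) more than miR166l/m, from which it differs by C20T. miR319a-d, a regulator of TCP genes that is close in sequence to miR159, had 1 read in GP and 139 in PS, with 1 in MP and 135 in MS.

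The miR396 family, which targets growth-regulating factor (GRF) genes, was spread over both sides of the known-read share. miR396c/d had 380 reads in GP (35.9 TPM) and 4816 in PS (925 TPM), a log2 ratio of 4.69 (4.54 to 4.84). miR396a/b had nearly the same count in GP, 382 reads (36.1 TPM), but only 714 in PS (137 TPM). Its log2 ratio was 1.93 (1.74 to 2.11) per clean read and −1.18 as a share of known reads. miR396e/f, which differs from miR396a/b at the last base (G21T), had 83 reads in GP and 37 in PS, a log2 ratio of −0.14 (−0.74 to 0.43). The ratio of miR396c/d was 6.78 times (5.74 to 8.0) that of miR396a/b and 28.4 times (18.8 to 43.7) that of miR396e/f. The 3 sequences share the seed TCCACAG.

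All 5 measured sequences of miR169, which targets NF-YA transcription factor genes, were higher in PS per clean read, and 3 were so as shares of known reads. Over all 45 known sequences these counts were 37 and 23. Of the 5, 4 reached the minimum of 10 reads in PS only, which fixed their direction per clean read. miR169c/r had 3 reads in GP and 3010 in PS (578 TPM), and miR169a/b had 2 and 1979 (380 TPM). Both begin with C, and their log2 ratios were 10.99 (9.44 to 13.27) and 10.97 (9.12 to 14.02). The other members begin with T. Of these, miR169f/g/h had 4 reads in GP and 18 in PS and miR169i/j/k had 10 and 33. miR169p, which differs from miR169c/r only by C1T, had 0 reads in GP and 38 in PS. The ratio of miR169c/r was 298 times (72.4 to 1758) that of miR169i/j/k. The comparison with miR169p was not decided at this depth, where the interval of the ratio of ratios reached from 0 to 195.

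Of the nutrient-related sequences, 3 of 4 linked to phosphate were higher per clean read and 1 lower. The single one linked to sulfate was higher, and 2 of 3 linked to copper were higher, beside 37 of 45 over all known sequences. Each of these called sequences reached the minimum of 10 reads in 1 library only. Those that were higher reached it in PS only, which fixed their direction per clean read, and the lower one in GP only. As shares of known reads, 2 of those linked to phosphate were higher, 1 was lower and 1 was not called, the one linked to sulfate was higher, and of those linked to copper 1 was higher, 1 lower and 1 not called. miR399a/c/h and miR528a/b were the sequences called higher on the first scale only. miR827, which targets SPX-domain genes of phosphate homeostasis, had 0 reads in GP and 10530 in PS (2023 TPM), with 2 in MP and 5057 in MS. It was at least 7131-fold higher in PS. miR395a/b/d-j/n/p, which acts on sulfate transport and assimilation genes, had 0 reads in GP and 324 in PS, at least 219-fold higher. miR408/miR408b and miR528a/b, which target transcripts of copper proteins, had 1 read each in GP and 837 and 33 in PS. miR398a/b, also of the copper group, had 15 reads in GP and 10 in PS. Its log2 ratio of 0.44 (−0.88 to 1.69) was not called per clean read and was called lower as a share of known reads, at −2.67.

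miR162, which targets DICER-LIKE1, rose with the majority, from 6 reads in GP to 622 in PS (119 TPM), a ratio of 211 (96.2 to 576). It differed in this from miR168a/b, the other miRNA of the silencing machinery, whose ratio was 6.93 (6.83 to 7.03). miR394a/b, a regulator of an F-box gene, had 0 reads in GP and 44 in PS. The triggers of phased siRNAs, miR2118 and miR2275, gave no sequence with 10 reads in either library. Their 7 sequences together had 7 reads in GP and 3 in PS.

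**Figure D2:**
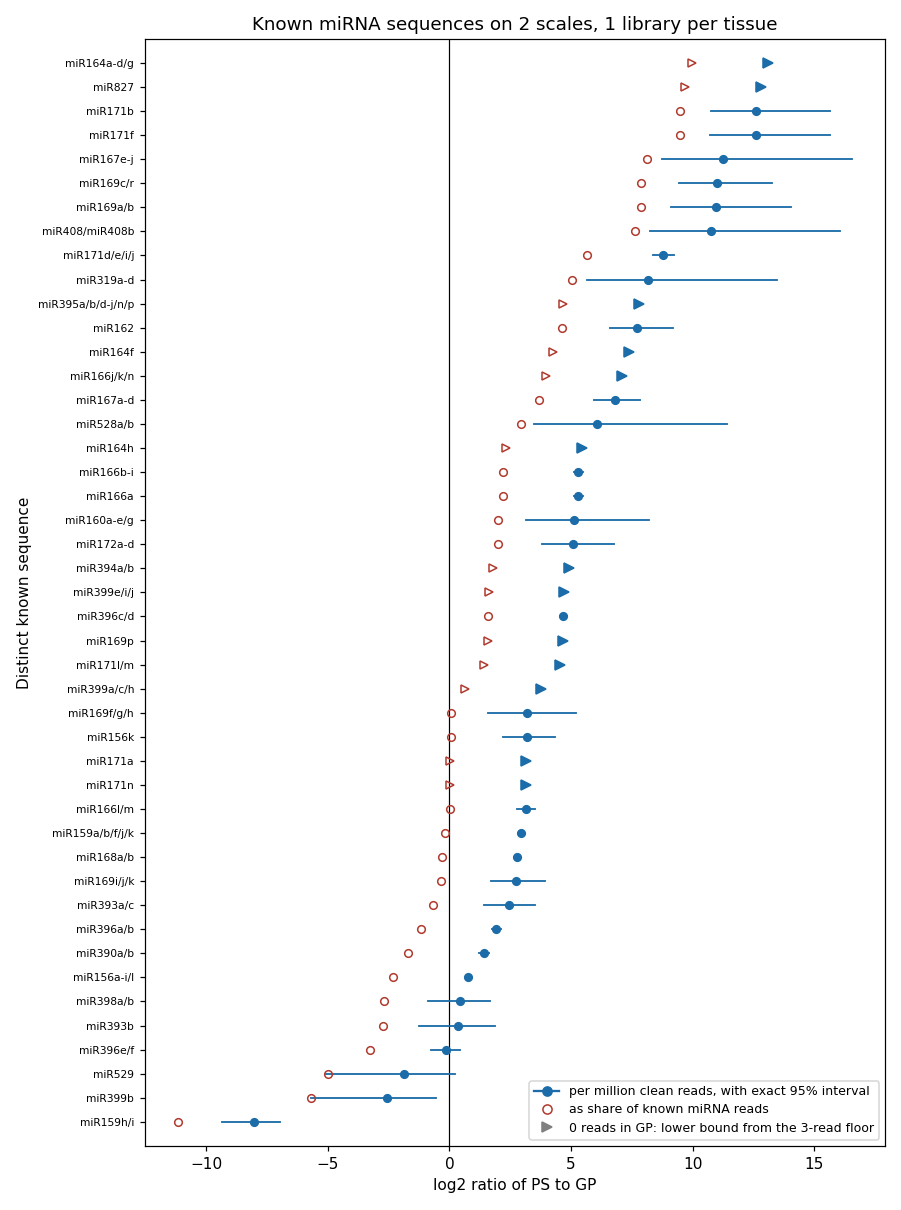
Log2 ratio of PS to GP (horizontal) for each of the 45 known sequences (vertical), 1 library per tissue. Filled points are per clean read with exact 95% intervals, open points are shares of known reads, and triangles are lower bounds for sequences with 0 reads in GP. Filled points lie right of 0 for 41 sequences and open points for 32, and miR159h/i stands alone at −8.02 and −11.1.

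The known sequence lowest in PS relative to GP was miR159h/i. It had 3696 reads in GP (350 TPM) and 7 in PS (1.34 TPM), with 408 in MP (112 TPM) and 44 in MS (7.62 TPM). Both pollen libraries were high and both silk libraries low. Its level in PS was 260 times lower than in GP (126 to 647), a log2 ratio of −8.02 per clean read and −11.1 as a share of known reads. It differs from miR159a/b/f/j/k by 1 base at position 7, inside the seed (T7G). That base is in capitals below, since the 2 sequences otherwise match.
miR159a/b/f/j/k: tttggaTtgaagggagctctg
miR159h/i: tttggaGtgaagggagctctg

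The PS to GP ratio of miR159a/b/f/j/k was 1999 times (969 to 4978) that of miR159h/i. Between the 2 sequences the direction was opposite per clean read. In GP miR159h/i was the fourth most abundant sequence with 8.38% of known reads, and in PS it had 0.00373% (0.00150% to 0.00769%). The table lists 6 target genes for miR159h/i and 11 for miR159a/b/f/j/k. They share 4, or 66.7% of the first list and 36.4% of the second.

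miR399b was the other known sequence lower in PS. miR399 targets PHO2, a ubiquitin-conjugating enzyme that limits phosphate uptake. miR399b had 24 reads in GP (2.27 TPM) and 2 in PS (0.384 TPM), with 0 in MP and 4 in MS, a log2 ratio of −2.56 (−5.69 to −0.55; adjusted p = 0.00828 by Fisher's exact test). With a chi-square test the call was lost. Its relatives miR399e/i/j and miR399a/c/h had 0 reads in GP, and 39 and 20 in PS. miR399e/i/j and miR399b differ at 2 positions (T14C and C17T), shown in capitals.
miR399e/i/j: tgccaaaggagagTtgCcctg
miR399b: tgccaaaggagagCtgTcctg
The ratio of miR399e/i/j exceeded that of miR399b by at least 54.2 times, the lower end of the exact interval. Both have the same 4 genes as listed targets.

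Members of 1 family thus often differed, and since both members of a pair were counted in the same 2 libraries, the comparison does not depend on scaling. Of 44 pairs of measured sequences within 10 families, the ratios of 22 pairs differed beyond their 95% interval. The other 22 intervals held 1, mostly where at least 1 member had few or no reads in GP. Of the 13 pairs that differ by a single base, 7 differed beyond their interval. Pairs that differ only near an end, or that overlap by at least 18 nt with starts at most 2 nt apart, can share reads. There were 21 such overlapping pairs among the 45 known sequences, and the table does not give how many reads they share. In 2 families, miR159 and miR399, members were called in both directions per clean read. On the known-read scale this held for miR396 and miR399. The miR399 members higher in PS reached the minimum of 10 reads in PS only, and miR399b reached it in GP only. miR159h/i also reached it in GP only. These members were thus chosen by the compared counts.

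**Figure D3:**
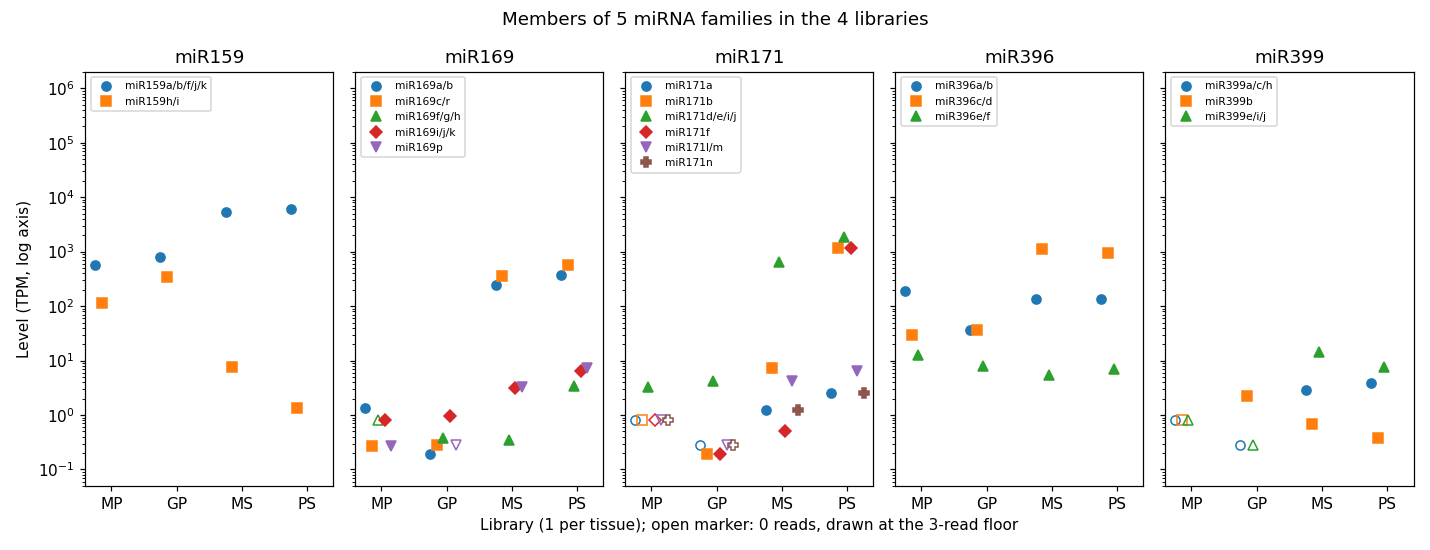
Levels (vertical, TPM, log axis) of the measured members of miR159, miR169, miR171, miR396 and miR399 in MP, GP, MS and PS (horizontal), 1 library per tissue, with 0 reads drawn as open markers at the 3-read floor. miR159h/i falls to 1.34 TPM in PS where miR159a/b/f/j/k stands at 6061 TPM, and miR171b and miR171f reach 1177 and 1160 TPM in PS from at most 7.27 TPM in MS.

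Predicted miRNAs were called in both directions. Per clean read, 26 of the 67 were higher in PS, 33 were lower and 8 were not called. Among the 105 predicted sequences tested, 31.4% were called higher and 31.4% lower. Relative to known reads 8 were higher, 41 lower and 18 not called, against 7.62% higher and 43.8% lower of those tested. Predicted reads are not part of the known reads, so a share of known reads here means predicted reads relative to known reads. Known reads were 8.63 times higher per clean read in PS, which lowers every such ratio. The median log2 ratio of the 67 was −1.50 per clean read. Here too the minimum of 10 reads mattered, since 24 of the 67 reached it in PS only and 35 in GP only. Of the 8 that reached it in both libraries, 2 were higher, 2 lower and 4 not called per clean read, and 0 higher, 6 lower and 2 not called as shares of known reads. The largest adjusted p was 7.96e-05 among the predicted sequences called higher and 0.00647 among those called lower (Fisher's exact test).

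The most abundant predicted sequence in PS was also the one with the largest ratio. The 22-nt cGGATGGGtgctgcgcggtggt had 7 reads in GP and 1460 in PS (280 TPM), with 1 in MP and 1112 in MS. Its ratio was 424 (205 to 1056), and it held 54.1% of all predicted reads in PS.

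The next ratios belonged to sequences of lower abundance. The 24-nt aTTCCCCCtctggattggtgtaac had 1 read in GP and 53 in PS, and the 22-nt aGAGAAAGctcgcgataaggtt had 2 and 64. The 22-nt tAGCCAAGcatgatttgcccgt had 0 reads in GP and 81 in PS, and has the same seed as the 5 miR169 sequences. The 21-nt aTCGAATGagattggggggat had 0 reads in GP and 57 in PS. In MS these 4 sequences had 26, 68, 29 and 33 reads, in MP 0, 4, 0 and 0.

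At the other end, 21-nt and 22-nt sequences were present in GP and nearly absent from PS. The 21-nt cAAAGAGAattgagggggcta had 274 reads in GP (25.9 TPM) and 1 in PS, with 9 in MP and 6 in MS. Its level in PS was 135 times lower, with an interval of 24 to 5346. The 22-nt aTATTAATtaagtaatcattga had 92 reads in GP and 1 in PS, with 0 in MP and 2 in MS. Its level was 45.3 times lower (7.93 to 1808).

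For 3 more the PS library had no read. The 22-nt cCTAGATGacatgtgtgttttt had 268 reads in GP, 42 in MP and 9 in MS, and was at least 44.0-fold lower in PS. The 21-nt tTCAACCCatgtgtattgaga had 168 reads in GP, 28 in MP and 0 in MS, at least 27.6-fold lower in PS. The 21-nt cAATTTAGggactaaaacgaa had 155 reads in GP, 13 in MP and 2 in MS, at least 25.4-fold lower. The most abundant predicted sequence in GP, the 22-nt cTGTTGCTgaatttgatgagcg, had 346 reads in GP and 127 in PS, a log2 ratio of −0.42 (−0.73 to −0.13) that was not called per clean read and was called lower as a share of known reads, at −3.53.

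The called sequences are described here by length. Of the 22 predicted sequences of 24 nt, 18 were higher in PS, 4 lower and 0 not called per clean read. Of the 23 of 21 nt, 3 were higher and 18 lower, and of the 21 of 22 nt, 5 were higher and 10 lower. The single sequence of 20 nt was lower. As shares of known reads, the 24-nt sequences gave 4 higher and 4 lower, the 21-nt sequences 1 higher and 20 lower. The minimum of 10 reads set most of these directions. None of the 22 sequences of 24 nt reached it in both libraries, since the 18 that were higher reached it in PS only, with at most 7 reads in GP, and the 4 that were lower in GP only, with at most 5 reads in PS. The 5 sequences of 21 nt that reached it in both libraries gave 2 higher, 2 lower and 1 not called, and the 3 of 22 nt were not called. The counts by length therefore show in which library a sequence was frequent enough to be measured. In plants, 24-nt small RNAs are mostly siRNAs of the RNA-directed DNA methylation pathway made by DICER-LIKE3, while most miRNAs are of 20 to 22 nt. Which of the 24-nt predicted sequences are miRNAs was not tested.

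**Figure D4:**
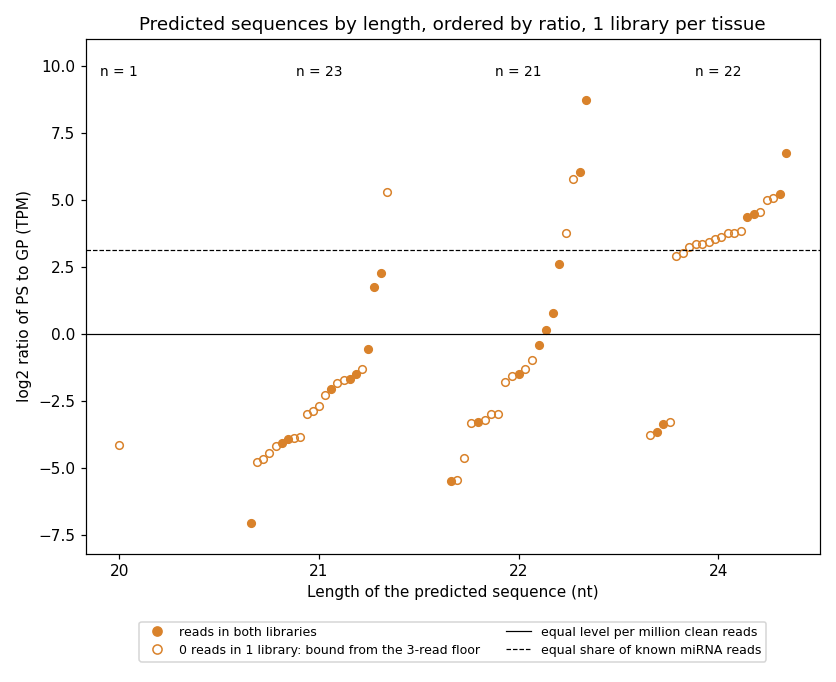
Log2 ratio of PS to GP (vertical, per clean read) for the 67 predicted sequences by length in nt (horizontal), ordered by ratio within a length, 1 library per tissue. Open points had 0 reads in 1 library and are bounds. Of the 22 sequences of 24 nt, 18 stand above the line of equal level, and each of these 18 reached the minimum of 10 reads in PS only.

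A single stretch recurred in the 24-nt group. The 12 letters AGCACCGTTGGA, or their reverse complement TCCAACGGTGCT, occurred in 7 of the 112 sequences, all predicted, of 24 nt and higher in PS per clean read. They are shown because they are shifted copies of the same stretch and so are not independent. The stretch is in capitals in 3 of them.
Forward, 47 reads in PS: gacgcAGCACCGTTGGAtgtggag
Forward, 34 reads in PS: AGCACCGTTGGAtatggagggtgt
Reverse, 15 reads in PS: aTCCAACGGTGCTgtgtcaggggg
Together the 7 had 1 read in GP and 146 in PS, with 1 in MP and 72 in MS. Each reached the minimum of 10 reads in PS only, which fixed its direction. On both strands, the stretch occurs in 13 of the 181 distinct sequences of the table (7.18%) and in 12 of its 42 sequences of 24 nt (28.6%). Of the 24-nt sequences called higher, 11 do not hold the stretch.

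First bases and arms added further description. Over all 67 predicted sequences, 26 were higher and 33 lower per clean read. All 24 that reached the minimum of 10 reads in PS only were higher, and 31 of the 35 that reached it in GP only were lower. The counts by first base therefore largely restate that minimum. By first base, 3 were higher and 10 lower of the 13 with T, 17 and 14 of the 36 with A, 1 and 7 of the 10 with C, and 5 and 2 of the 8 with G. As shares of known reads, the same counts were 1 and 10 with T, 5 and 19 with A, 1 and 9 with C, and 1 and 3 with G, against 8 and 41 of the 67. Of the 45 known sequences, 37 begin with T. For 8 hairpins both arms were among the 67. In 4 of them both arms were lower, in 1 both were higher, in 3 only 1 arm was called, and in 0 the arms were called in opposite directions. Where both arms were called, both had reached the minimum in the same library only, so it largely set their shared direction. The arms of 1 hairpin parted most. Its 3′ arm aCCCGTGCtgcaagctttatggtt had 7 reads in GP and 129 in PS, a log2 ratio of 5.23, and its 5′ arm aACCATAAagtttgtagcacgg had 36 and 30, a log2 ratio of 0.76 that was not called.

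A pair of overlapping predicted sequences also differed, although length variants of up to 2 bp had been added to each entry. The reason was not tested. The 20-nt aGAGGGGAttggaggggcta had 108 reads in GP and 0 in PS, and the 21-nt aGAGGGGAttggaggggctaa, with 1 further base, had 124 and 41.

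Targets were listed for 65 of the 112 sequences. Of the known sequences 36 of 37 that were higher, 2 of 2 that were lower and 6 of 6 that were not called had listed targets. Of the predicted ones, 2 of 26 that were higher, 14 of 33 that were lower and 5 of 8 that were not called had them. The predicted sequences of 24 nt, 18 of them higher and 4 lower, had no listed target. The counts by direction are therefore tied to length.

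The label of the PS library was checked against sequences of both tissues. Since the marks were chosen partly by their reads in GP, they do not check the label of GP. As marks of silk, 18 distinct sequences had at least 10 reads in MS and 0 in MP and GP. All 18 had reads in PS, at 131% (121% to 142%) of their summed level in MS. As marks of pollen, 9 distinct sequences, all predicted, had at least 10 reads in GP and 0 in MS. They had 430 reads in GP and 1 in PS, so that their level in PS was 0.472% (0.0119% to 2.65%) of that in GP. Choosing marks by their reads in GP can lower such a percentage, and the interval does not cover that choice. With up to 2 reads in MS allowed, 21 marks had 1199 reads in GP and 8 in PS, a level of 1.36% (0.584% to 2.68%). The level of miR159h/i in PS was 0.385% (0.155% to 0.794%) of that in GP, although MS had 44 reads of it.

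Most of the sequences higher in PS were also measured in silk before pollination. Of the 63 known and predicted sequences called higher, 51 had at least 10 reads in MS and 9 had fewer but more than 3. The remaining 3, miR171f, miR169f/g/h and a predicted one, had at most 3 reads. For miR169f/g/h the level was 0.346 TPM in MS and 0.378 TPM in GP. The same counts were not made over all 112 members, so they do not set the called sequences apart. Known members all had reads in MS, whatever their call. Of the predicted ones, 0 of the 26 higher, 8 of the 33 lower and 1 of the 8 not called had 0 reads in MS. The 37 known sequences higher in PS had summed levels of 3688 (MP), 3130 (GP), 30653 (MS) and 34794 TPM (PS). Without miR168a/b the sums were 956, 924, 15982 and 19510 TPM. The 26 predicted ones had 9.89, 7.38, 325 and 450 TPM in the same order. The 33 predicted sequences lower in PS had 188, 270, 25.1 and 9.80 TPM, and 23 of them had 0 reads in PS.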

How the data were processed

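The authors cleaned the reads of adaptors and low-quality sequence, mapped those left to maize RefGen_v2 with SOAP, filtered out other structural RNAs, and took known miRNAs from miRBase by Blastn and predicted ones from hairpins (Einverted, RNAfold, MirCheck). The deposited counts are whole reads per miRNA name, to which the authors added length variants of up to 2 bp. The TPM that the authors deposited divide each count by the clean reads of its library, with no length term, and comparing both gave back the number of clean reads. Columns of p-values, from chi-square tests that the authors ran for each pair of libraries, were not used. Target genes are the authors' predictions. The number of per-sample value columns not used was 0.

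Names with the same mature sequence were merged, with the counts of the name with the most reads over the 4 libraries. PS was set against GP by Fisher's exact test, 2-sided (scipy 1.17.1, Python 3.11.15) on reads against clean reads or against known reads, adjusted by Benjamini-Hochberg over the 174 sequences with a read in PS or GP. A sequence was called if its adjusted p was under 0.01 and its log2 ratio above 1.5 in either direction. A count of 0 was set to 3 reads. Where neither count passed 3, the sequence has no ratio. Intervals are exact (Clopper-Pearson, 95%), and ratios of ratios between members of a family are conditional odds ratios with exact intervals. These within-family comparisons and the shared stretch were added after the data had been seen. edgeR 4.0.16 and DESeq2 1.42.0 gave only the TMM factors and median-ratio size factors of the scaling alternatives, since 1 library per tissue leaves nothing to fit. The test was tried on simulated counts.

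The members and lists were chosen with earlier results of these data known. Named known sequences were the 10 called with the largest log2 ratio in each direction, the 5 most abundant in PS and in GP, and those with at least 100 reads whose direction differed between clean-read and known-read scales. Named predicted sequences were the 5 called with the largest log2 ratio in each direction and the 3 most abundant in each library. Other members are named as family relatives, or as the arms and overlapping sequences described, chosen after their values were seen. Of 213 target genes listed for the members, 110 matched an entry of the RefSeq annotation Zm-B73-REFERENCE-NAM-5.0.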

Additional observations from a re-analysis of the deposited data

Results flagged for a closer look

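A sequence outside the comparison had reads only in silks before pollination. Its deposited name gives the same hairpin as the most abundant predicted sequence in PS, which had 1112 reads in MS and 1460 in PS. The others of the 7 sequences with no read in PS or GP had at most 3 reads in MS. The predicted 22-nt cGCCTCGCatccccatcccgcc had 4 reads in MS and 0 in PS, GP and MP, just above the limit of 3 reads that a count of 0 allows.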

How the results depend on the processing

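No paired analysis was possible because each tissue has 1 library, and no replicate could be left out. Known sequences higher in PS numbered 37 per clean read, 23 with known reads or TMM, and 19 with known reads without miR168a/b or median-ratio factors. Known sequences lower numbered 2 per clean read and 8 under each of these. Predicted sequences higher fell from 26 to 8 under each of these. Of the called sequences, 19 known and 8 predicted ones higher in PS, and 2 known and 33 predicted ones lower, kept their call under every scaling. The median log2 ratio of known members was 4.72 per clean read, 1.61 with known reads, 1.32 without miR168a/b, 1.61 with TMM and 1.30 with median-ratio factors. That of predicted members was −1.50, −4.61, −4.90, −4.61 and −4.92. The direction turned for 5 named sequences, given in the order known reads, without miR168a/b, TMM and median ratio: miR159a/b/f/j/k to −0.17, −0.45, −0.17 and −0.47, miR168a/b to −0.32, −0.61, −0.32 and −0.63, miR396a/b to −1.18, −1.47, −1.18 and −1.49, miR390a/b to −1.68, −1.97, −1.68 and −1.99, and miR156a-i/l to −2.33, −2.62, −2.33 and −2.63. The median of the phase-change list turned from 1.99 to −1.12, −1.41, −1.12 and −1.43. The other 23 named sequences kept direction and call, and 1 gained a call.

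A minimum of 50 reads left fewer sequences, with 24 known higher and 1 lower, and 8 predicted higher and 21 lower. The medians of those left were 6.95 and −3.32. With no minimum the medians were 3.19 and 0.076, a turned sign for the predicted ones. With 1 read added to each count they were 5.29 and −1.92. Counting each name gave 105 known names higher. Keeping only the most abundant of overlapping sequences gave 26 known higher and 2 lower, and 22 predicted higher and 32 lower. The medians were then 4.81 and −1.53. With the chi-square test 1 known sequence was lower. Pollen marks chosen in MP had 0 reads in PS, a level of 0% of that in GP with an upper limit of 3.12%, and those with up to 2 reads in MS gave 1.36%. The ratio of known reads was 8.63, 10.5 without miR168a/b and 7.0 summed over all names. The causes were not tested beyond what each setting's construction shows. Depth limits every ratio with few reads: 30 members had 0 reads in GP and 26 had 0 in PS, and their ratios are bounds.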
